A study of Mus musculus with 10 samples.

Results

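The bile acid transporters of the liver and the FXR receptor that controls them were examined as 10 genes, taken by symbol from the deposited table of 47729 genes: Slc10a1, Slco1a1, Slco1b2, Abcb11, Abcb4, Abcc2, Abcc3, Slc51b, Nr1h4 and Nr0b2. All 10 were found, and 9 passed the filter on low values, a mean of at least 0.5 FPKM over 10 libraries. FPKM divides a gene's fragments by its length and by the size of its library, so levels can be set side by side between genes. The samples were livers of female mice, 5 with a full-body knockout of Etnppl (KO) and 5 wild type (WT), with 1 library each. Both genotypes received chow for 8 weeks, followed by 10 weeks on a high-fat diet that supplied 45% of kcal as fat. The sources used here do not say which exons of Etnppl were deleted. Etnppl encodes the enzyme that breaks down phosphoethanolamine, a precursor of phosphatidylethanolamine. The labels number the samples but do not say that each is a separate animal, so the spread behind each p-value is that between samples and may be technical.

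Hepatocytes take bile acids up from blood across the basolateral membrane and pump them into the bile canaliculus across the apical membrane. Phospholipid and organic anions are exported beside them, and a further set of carriers returns bile acids to blood when they accumulate. The bile acid receptor FXR, encoded by Nr1h4, pairs with the retinoid receptor RXR, switches on export genes such as Abcb11 and Slc51b, and induces the repressor SHP, encoded by Nr0b2. SHP carries no DNA-binding domain of its own and lowers bile acid synthesis by holding back other nuclear receptors.

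The textbook binding motif of FXR with RXR is an inverted repeat of the hexamer AGGTCA with 1 spacer base, that is AGGTCA, any base, then TGACCT. It was searched in RefSeq promoter windows (build GRCm38.p6) that run from 250 bases before to 50 bases after each annotated start, and it reads alike on both strands. Windows were given for 9 of the 10 genes, 10 windows in all, with none for Abcc3. The promoters of Abcb11 and Slco1b2 are shown because they were the only members whose window held the repeat with at most 2 mismatches at its 12 fixed bases, and each had 1. Of all 32851 windows, 374 (1.14%) held it at that limit and 27 (0.0822%) with at most 1 mismatch. The capitals mark the repeat.
Abcb11, chr2:69342567-69342866, minus strand: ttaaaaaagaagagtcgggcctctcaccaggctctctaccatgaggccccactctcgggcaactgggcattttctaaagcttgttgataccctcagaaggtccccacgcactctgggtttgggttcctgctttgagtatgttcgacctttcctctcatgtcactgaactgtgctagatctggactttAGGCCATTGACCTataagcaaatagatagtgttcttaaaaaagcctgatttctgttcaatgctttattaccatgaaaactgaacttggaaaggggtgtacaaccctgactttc
Slco1b2, chr6:141629268-141629567, plus strand: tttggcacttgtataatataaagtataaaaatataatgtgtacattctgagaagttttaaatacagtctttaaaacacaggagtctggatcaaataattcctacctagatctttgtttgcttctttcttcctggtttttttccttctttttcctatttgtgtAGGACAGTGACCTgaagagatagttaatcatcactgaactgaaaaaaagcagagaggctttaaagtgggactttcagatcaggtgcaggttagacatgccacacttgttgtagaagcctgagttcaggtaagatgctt

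The repeat of Abcb11 lay 63 to 51 bases before the start (chr2:69342667-69342679), and its difference from the motif, counted from 1 at the motif's 5′ end with the motif's base first, was T4C. That of Slco1b2 lay 88 to 76 bases before the start (chr6:141629430-141629442), with T4A. The closest stretches in the windows of Slc51b and Nr0b2, shown because both genes are known FXR targets, had 3 and 4 mismatches. In the lines that follow, bases in capitals match the motif or fill its spacer, and bases in lower case differ from it.
Abcb11: AGGcCATTGACCT
Slco1b2: AGGaCAGTGACCT
Slc51b: gGGTCATTcACCc
Nr0b2: ActTCATTGACta
At most 3 mismatches were found in 3753 windows (11.4%), which added Slc10a1, Slc51b and Slco1a1 among the members. A match describes these letters and is not a measured binding site, and the window leaves out more distant sequence.

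The labels and depth were checked first. Etnppl lay between 7.36 and 10.2 FPKM in KO livers and between 27.6 and 56.6 FPKM in WT livers, so every library matched its label. Depth, read from the steps between low FPKM values, was 21000000 to 28200000 fragments in KO libraries and 21900000 to 25100000 in WT libraries. The fixed list of hepatocyte markers summed to 63791 to 72771 FPKM in KO and 58505 to 66724 FPKM in WT. Markers of cholangiocytes, the bile duct cells that share some of these carriers, summed to 49.9 to 65.6 FPKM in KO and 60.3 to 65.8 FPKM in WT, and the defining markers Krt7 and Cftr were under the filter. In bulk tissue, fewer cells of a type and less RNA per cell cannot be told apart.

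No member passed the test for a difference between KO and WT livers. With limma across 12395 genes and a Benjamini-Hochberg adjusted p of 0.05, 0 of the 9 members tested were called, against 0.0645% of all genes (8 genes). At an unadjusted limma p under 0.05 there were 2 members, Abcb11 and Slc10a1, both higher in KO, against 11.8% of all genes. Without WT replicate 2 there were 4 members at that p, with Abcb11, Slc10a1 and Slc51b higher and Nr1h4 lower in KO, against 11.6% of all genes in the same refit. This was the most of any refit, and every other refit had 2 or 3. The KO and WT ranges were separate in 0 of 9 members, against 2.79% of all genes. The estimate was above 0 for 6 of 9 members, against 34.9% of all genes, and the median log2 fold change was 0.12 for the members and -0.05 for all genes. With median-of-ratios scaling the share above 0 was 48.9% of all genes and still 6 of 9 members, and the median of all genes was -0.004. The median of the 10 hepatocyte markers was 0.13, and their part in the members' values was not tested. The number of genes called over the whole table was 18 without WT replicate 2, 5 without KO replicate 1 or 3 or WT replicate 3 or 4, and 4 without KO replicate 2 or WT replicate 1 or 5. None of these counts held a member.

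**Figure D1:**
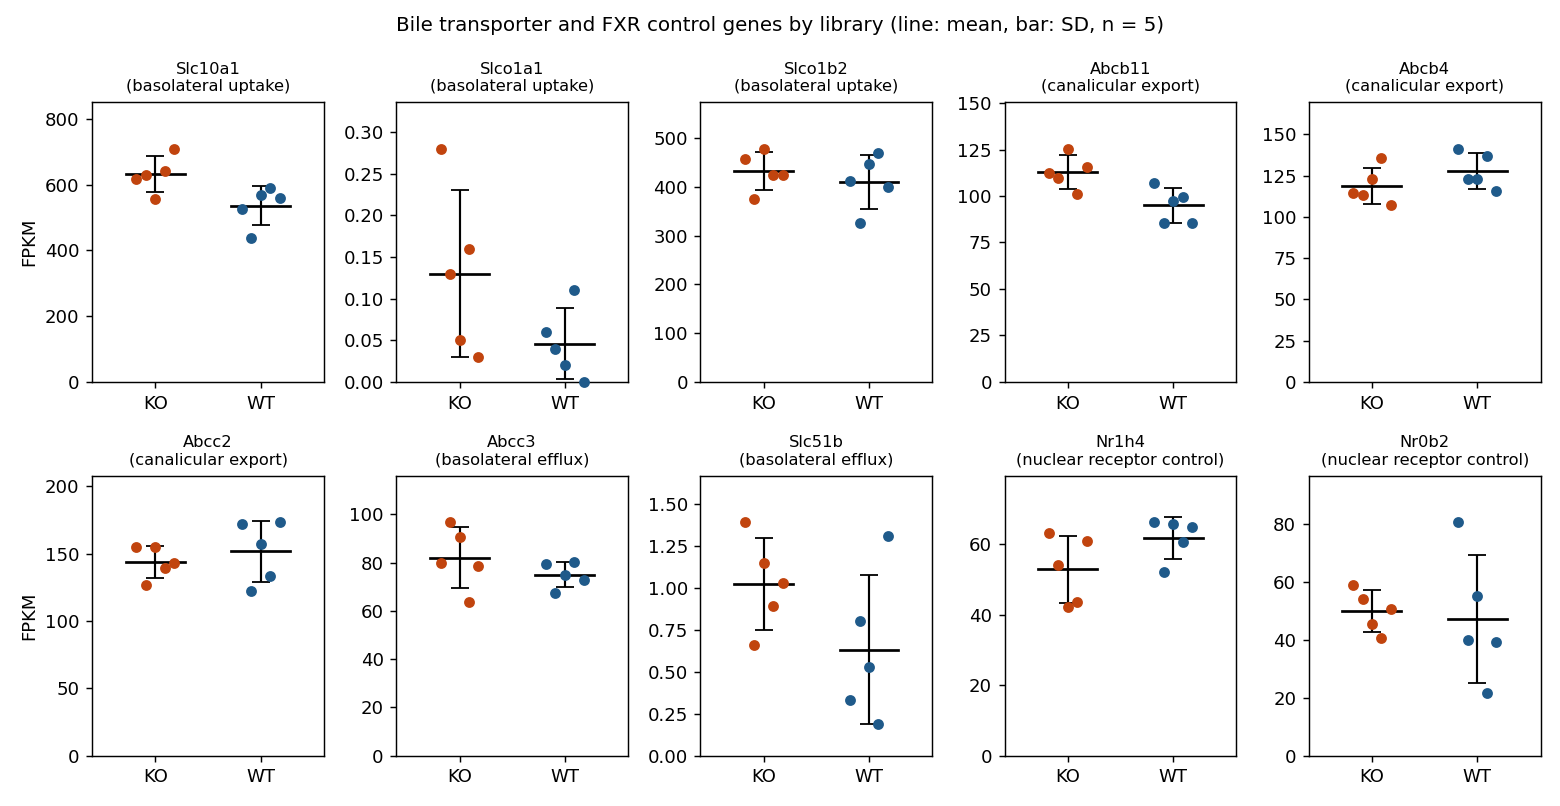
FPKM of the 10 genes in each of 5 KO and 5 WT livers, 1 point per library, with the group mean as a line and the SD as a bar, each axis starting at 0. The KO points of Abcb11 and Slc10a1 sit mostly above the WT points, with 4 of 5 above every WT library, and the WT points of Nr0b2 spread from 21.6 to 80.7 FPKM.

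The members spanned a wide range of abundance. The sodium-dependent bile acid carrier Slc10a1 was highest, at a mean of 583 FPKM over the 10 libraries, above 98.9% of the genes tested. The organic anion carrier Slco1b2 followed at 421 FPKM, and Slc10a1 was above it in all 5 KO and all 5 WT libraries. The 3 canalicular exporters came next, with Abcc2 at 148 FPKM, Abcb4 at 123 FPKM and Abcb11 at 104 FPKM, and their ranges overlapped. Abcc2 exceeded Abcb4 in 5 of 5 KO but 3 of 5 WT libraries, and Abcb4 exceeded Abcb11 in 3 of 5 KO but 5 of 5 WT libraries, so these neighbours did not keep 1 order. Abcc3 had 78.4 FPKM, Nr1h4 57.3 FPKM and Nr0b2 48.7 FPKM, with Nr1h4 and Nr0b2 changing places between libraries. A wide gap followed, to Slc51b at 0.828 FPKM and Slco1a1 at 0.088 FPKM.

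**Figure D2:**
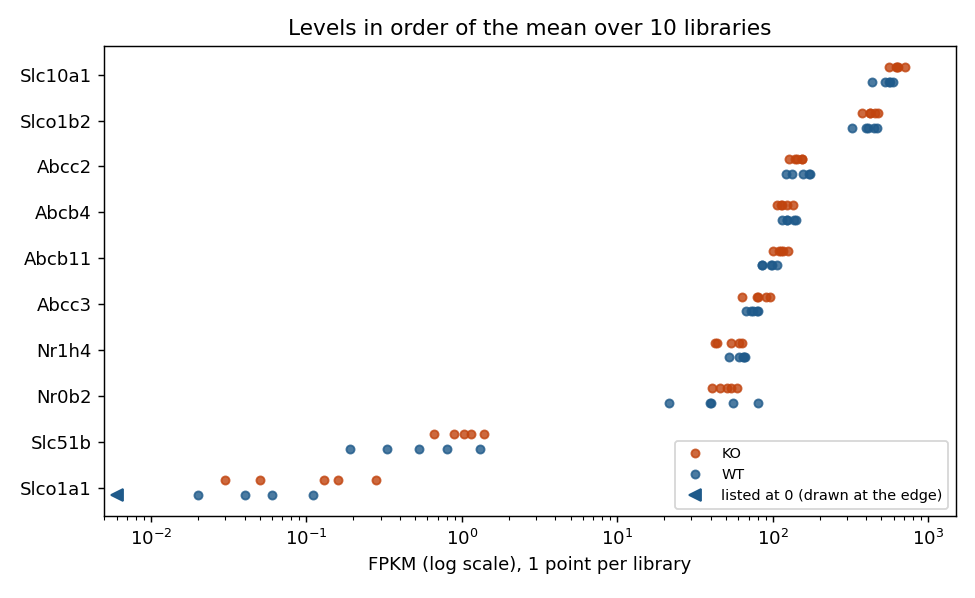
FPKM of the 10 genes on a log axis, ordered from top to bottom by the mean over 10 libraries, with KO points above WT points for each gene and a value listed at 0 drawn at the left edge. The upper 8 genes lie between 21.6 and 709.7 FPKM, while Slc51b and Slco1a1 lie at or below 1.39 FPKM.

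Of the 2 abundant uptake carriers, Slc10a1 had 4 and Slco1b2 had 1 of 5 KO libraries above every WT library. Slc10a1 (ENSMUSG00000021135, chr12:80953183-80968705, minus strand, GRCm38), also called NTCP, brings conjugated bile acids into the hepatocyte together with sodium. It had 617, 628, 557, 642 and 709.7 FPKM in KO livers, against 527, 436, 568, 591 and 559 FPKM in WT livers. In KO, 4 of 5 libraries lay above every WT library, KO replicate 3 lay within the WT range, and WT replicate 2 was the lowest of all. The means were 631 ± 54.6 FPKM in KO and 536 ± 60.4 FPKM in WT (SD, n = 5 each), and the log2 fold change was 0.24 (95% CI 0.045 to 0.43). The gene did not pass (limma adjusted p = 0.308). Its exact permutation p, two-sided and unadjusted, was 0.0317, where 0.00794 is the smallest possible. Without WT replicate 2 the log2 fold change was 0.17.

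Slco1b2 (ENSMUSG00000030236, chr6:141629518-141686646, plus strand) is a sodium-independent carrier of organic anions and unconjugated bile acids, and stands in the mouse for the human carriers SLCO1B1 and SLCO1B3. It had 457, 375, 479, 424 and 425 FPKM in KO livers, against 412, 325, 446, 469 and 401 FPKM in WT livers. The groups overlapped over most of their range, with KO replicate 2 lowest in KO and WT replicate 2 lowest in WT. The means were 432 ± 39.3 FPKM in KO and 411 ± 54.9 FPKM in WT, and the log2 fold change was 0.08 (95% CI -0.13 to 0.29, limma adjusted p = 0.790). It was -0.0013 without WT replicate 2, so the sign of the estimate rests on that library. It was 0.04 without KO replicate 3 and 0.13 without KO replicate 2 or WT replicate 4.

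Slco1a1 (ENSMUSG00000041698, chr6:141907282-141946962, minus strand), a related carrier known in the mouse for much higher levels in male than in female liver, was close to absent in these females. It had 0.28, 0.13, 0.05, 0.16 and 0.03 FPKM in KO livers, against 0.06, 0.04, 0.02 and 0.11 FPKM in WT replicates 1 to 4, and was listed at 0 in WT replicate 5. KO replicates 1, 2 and 4 lay above every WT library, and the groups overlapped, since KO replicates 3 and 5 lay below the highest WT library. The gene was under the filter and was not part of the limma fit. The exact permutation p on log2(FPKM + 0.5), unadjusted, was 0.103. With the longest annotated transcript of 3904 bases, a single fragment would be worth 0.0097 to 0.0131 FPKM, which puts the highest value at about 25 fragments, so counting error is large. Of its relatives, Slco1a5 was listed at 0 in every library, and Slco1a6 had at most 0.02 FPKM in KO and was listed at 0 in WT.

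Summed within each library, the 3 uptake carriers had 1063 ± 48.9 FPKM in KO and 947 ± 114 FPKM in WT, with overlapping ranges of 1004 to 1135 FPKM in KO and 762 to 1060 FPKM in WT. The 3 canalicular exporters summed to 375 ± 19.7 FPKM in KO and 375 ± 31.7 FPKM in WT.

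Among the canalicular exporters, Abcb11 was the member of lowest p. Abcb11 (ENSMUSG00000027048, chr2:69238282-69342616, minus strand), the bile salt export pump, moves conjugated bile acids into the canaliculus. It had 113, 109.7, 126, 101 and 116 FPKM in KO livers, against 107, 85.6, 97.4, 99.6 and 85.2 FPKM in WT livers. In KO, 4 of 5 libraries lay above every WT library, and the overlap came from KO replicate 4 and WT replicate 1. The means were 113 ± 8.98 FPKM in KO and 94.9 ± 9.35 FPKM in WT (SD, n = 5 each), and the log2 fold change was 0.25 (95% CI 0.078 to 0.42). Abcb11 did not pass (limma adjusted p = 0.232), and its unadjusted exact permutation p was 0.0159. Over all refits at other settings and without single libraries, the fold change ran from 0.21 to 0.30 on the log2 scale. Its exons share 136 bases with the antisense gene Gm13613 on the opposite strand, which was listed at 0 in every library.

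Abcb4 (ENSMUSG00000042476, chr5:8893717-8959231, plus strand), the phospholipid floppase that supplies phosphatidylcholine to bile, had an estimate of the opposite sign. It had 115, 113, 123, 135.5 and 107 FPKM in KO livers, against 141, 123, 123, 137 and 115 FPKM in WT livers. KO replicates 1, 2 and 5 lay below every WT library, KO replicate 4 was near the top of WT, and the groups overlapped. The means were 119 ± 10.96 FPKM in KO and 128 ± 10.8 FPKM in WT, and the log2 fold change was -0.11 (95% CI -0.28 to 0.059, limma adjusted p = 0.615). It was -0.07 without WT replicate 1. The ratio of Abcb4 to Abcb11 within a library, which does not depend on the scaling of that library, was 1.02, 1.03, 0.979, 1.34 and 0.925 in KO livers, against 1.32, 1.44, 1.27, 1.38 and 1.35 in WT livers. Of the KO ratios, 4 of 5 lay below every WT ratio, and KO replicate 4 lay within the WT range. This ratio is given as a description without a test.

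Abcc2 (ENSMUSG00000025194, chr19:43782192-43840740, plus strand), also called MRP2, exports bilirubin glucuronides and other conjugates into bile. It had 155, 127, 155, 139 and 143 FPKM in KO livers, against 172, 122, 157, 133 and 173 FPKM in WT livers. All KO values lay inside the WT range. The means were 144 ± 11.7 FPKM in KO and 152 ± 22.9 FPKM in WT, and the log2 fold change was -0.07 (95% CI -0.29 to 0.15, limma adjusted p = 0.831). When single libraries were left out it ran from -0.14, without WT replicate 2, to -0.02, without KO replicate 2, WT replicate 1 or WT replicate 5, and it was -0.11 without WT replicate 4.

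The basolateral efflux carriers send bile acids and conjugates back to blood. Abcc3 (ENSMUSG00000020865, chr11:94343295-94392997, minus strand), or MRP3, transports glucuronides and some bile acids. It had 80.0, 96.7, 90.6, 63.7 and 78.7 FPKM in KO livers, against 79.5, 67.4, 75.0, 80.2 and 72.9 FPKM in WT livers. The WT values lay wholly within the KO range, and the coefficient of variation was 15.4% in KO and 6.96% in WT. The log2 fold change was 0.12 (95% CI -0.10 to 0.33, limma adjusted p = 0.698). It was 0.05 without KO replicate 2, 0.08 without KO replicate 3 and 0.20 without KO replicate 4. The ratio of Abcc3 to Abcc2 was 0.575 ± 0.115 in KO and 0.502 ± 0.0726 in WT, with overlap.

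Slc51b (ENSMUSG00000053862, chr9:65412714-65422955, minus strand) encodes the beta subunit of the organic solute transporter, which works only as a pair with the alpha subunit encoded by Slc51a. Slc51b had 1.39, 0.66, 1.15, 0.89 and 1.03 FPKM in KO livers, against 0.33, 0.80, 0.53, 0.19 and 1.31 FPKM in WT livers. WT replicates 1, 3 and 4 lay below every KO library, and WT replicate 5 lay above 4 of the KO libraries. The means were 1.02 ± 0.274 FPKM in KO and 0.632 ± 0.443 FPKM in WT, and the log2 fold change was 0.49 (95% CI -0.017 to 1.005, limma adjusted p = 0.435). The fold change depends on the constant added before the logarithm, at 0.80 with a pseudocount of 0.1 and 0.34 with a pseudocount of 1. With the annotated transcript of 709 bases, the values would correspond to 7.70 to 15.7 fragments in KO and 1.99 to 13.7 in WT. These estimates lay up to 0.443 from a whole number, and the length behind the authors' values is not known. The nearest whole number was even in every library, from 8 to 16 in KO and from 2 to 14 in WT. The true fragment numbers may therefore be smaller than these estimates. Slc51a was listed at 0 in all 10 libraries, so no ratio of the subunits could be formed. The exons of Slc51b share 91 bases with Rasl12 on the opposite strand, which had at most 0.15 FPKM, and those of Slc51a share 567 bases with Pcyt1a, which had 17.9 ± 1.69 FPKM in KO and 19.2 ± 1.94 FPKM in WT.

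Among the controlling receptors, Nr1h4 (ENSMUSG00000047638, chr10:89454234-89533585, minus strand) had the lower mean in KO. It had 63.2, 54.1, 42.2, 43.7 and 60.8 FPKM in KO livers, against 66.2, 52.0, 65.6, 60.5 and 64.7 FPKM in WT livers. KO replicates 3 and 4 lay below every WT library, and the other KO libraries lay within the WT range. The means were 52.8 ± 9.60 FPKM in KO and 61.8 ± 5.92 FPKM in WT, and the log2 fold change was -0.24 (95% CI -0.49 to 0.015, limma adjusted p = 0.448). The unadjusted exact permutation p was 0.127.

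Nr0b2 (ENSMUSG00000037583, chr4:133553376-133556536, plus strand), the repressor that FXR induces, differed more among the WT livers than between the genotypes. It had 59.0, 54.1, 45.6, 40.7 and 50.7 FPKM in KO livers, against 80.7, 39.96, 55.2, 21.6 and 39.3 FPKM in WT livers. The KO values lay inside the WT range, whose ends were WT replicates 1 and 4. The means were 50.01 ± 7.16 FPKM in KO and 47.4 ± 22.1 FPKM in WT, with a coefficient of variation of 14.3% in KO and 46.7% in WT. The log2 fold change was 0.19 (95% CI -0.46 to 0.85, limma adjusted p = 0.836). It was 0.42 without WT replicate 1 and -0.053 without WT replicate 4. At this level the counting error is small, with about 437 fragments in WT replicate 4 and 1790 in WT replicate 1, estimated from the single annotated transcript of 1132 bases. The ratio of Nr0b2 to Nr1h4 ran from 0.833 to 1.08 in KO and from 0.357 to 1.22 in WT.

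**Figure D3:**
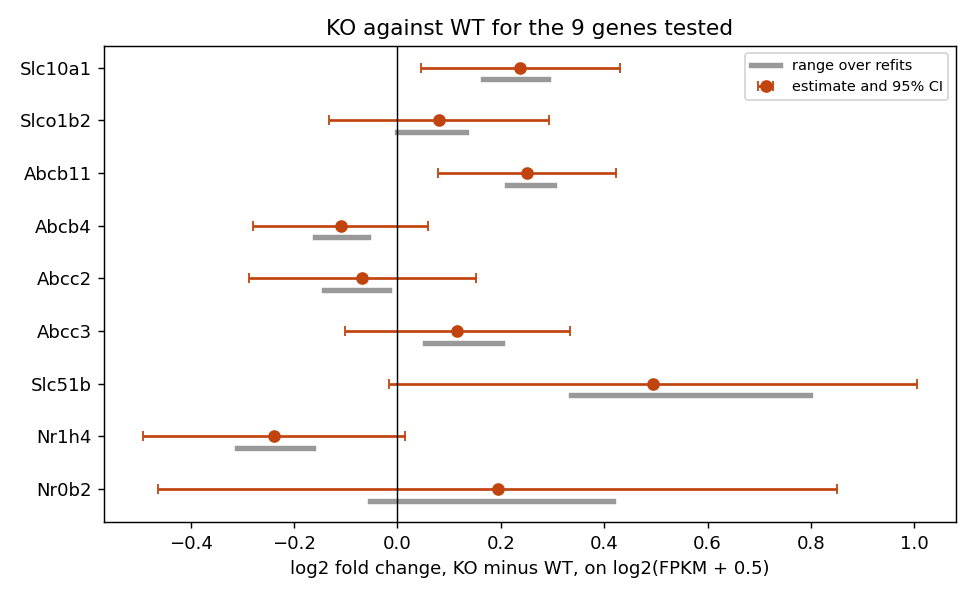
Log2 fold change of KO minus WT for the 9 genes tested, as a point with its 95% confidence interval, and below it in grey the range over all refits at other settings and without single libraries. The intervals of Slc10a1 and Abcb11 lie above 0 and those of the other 7 genes cross it, while the grey ranges of Slco1b2 and Nr0b2 cross 0.

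The levels of FXR control genes and their textbook targets were compared across the 10 libraries in 8 fixed pairs. None of the 8 was related past the threshold by permutation tests with 100000 resamples. Nr1h4 and Nr0b2 had a Pearson r of 0.23 (permutation p = 0.501, adjusted p = 0.795) and a Spearman rho of 0.48 (permutation p = 0.166, adjusted p = 0.684), and the r was 0.28 without KO replicates 3 and 4, the libraries farthest from the median of Nr1h4. Nr0b2 and Abcb11 had the highest r, 0.35 (permutation p = 0.333, adjusted p = 0.795), with a rho of 0.47 (permutation p = 0.184, adjusted p = 0.684). Their r was 0.56 without WT replicates 1 and 4, the libraries farthest from the median of Nr0b2, and 0.30 with the genotype means removed.

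Nr0b2 and Cyp7a1, which encodes the enzyme that limits the rate of bile acid synthesis and is held back by SHP, had an r of -0.39 (permutation p = 0.2375, adjusted p = 0.795) and a rho of -0.042 (permutation p = 0.919, adjusted p = 0.99953). Without WT replicates 1 and 4 the r was 0.74, so the negative sign rests on those libraries. Cyp7a1 had 27.9, 27.8, 14.1, 15.1 and 24.2 FPKM in KO livers, against 5.28, 23.9, 25.2, 28.7 and 9.71 FPKM in WT livers, and did not pass (limma adjusted p = 0.771). WT replicate 1, highest in Nr0b2, was lowest in Cyp7a1, and WT replicate 4, lowest in Nr0b2, was highest in Cyp7a1. Cyp8b1, the sterol 12-hydroxylase that FXR and SHP also restrain, had an r with Nr0b2 of 0.11 (permutation p = 0.696) and a rho of 0.28 (permutation p = 0.425), and the r was 0.60 without the same libraries.

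The other 4 pairs had an r between -0.28 and 0.20. Nr0b2 and Slc51b had an r of 0.20 (permutation p = 0.562) and a rho of -0.0061 (permutation p = 0.99953), and Nr0b2 and Slc10a1 an r of 0.025 (permutation p = 0.912) and a rho of 0.055 (permutation p = 0.893). Without WT replicates 1 and 4 these r were -0.17 and 0.47. The receptor Nr1h4 and its target Abcb11 had an r of -0.28 (permutation p = 0.448) and a rho of -0.28 (permutation p = 0.427), and the r was 0.16 without KO replicates 3 and 4 and 0.20 with genotype means removed. The exporters Abcb11 and Abcb4 had an r of -0.16 (permutation p = 0.656) and a rho of -0.39 (permutation p = 0.264), and the r was -0.52 without WT replicates 2 and 5 and 0.27 with genotype means removed. The adjusted permutation p-values of these 4 pairs and of Nr0b2 with Cyp8b1 were at least 0.684.

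**Figure D4:**
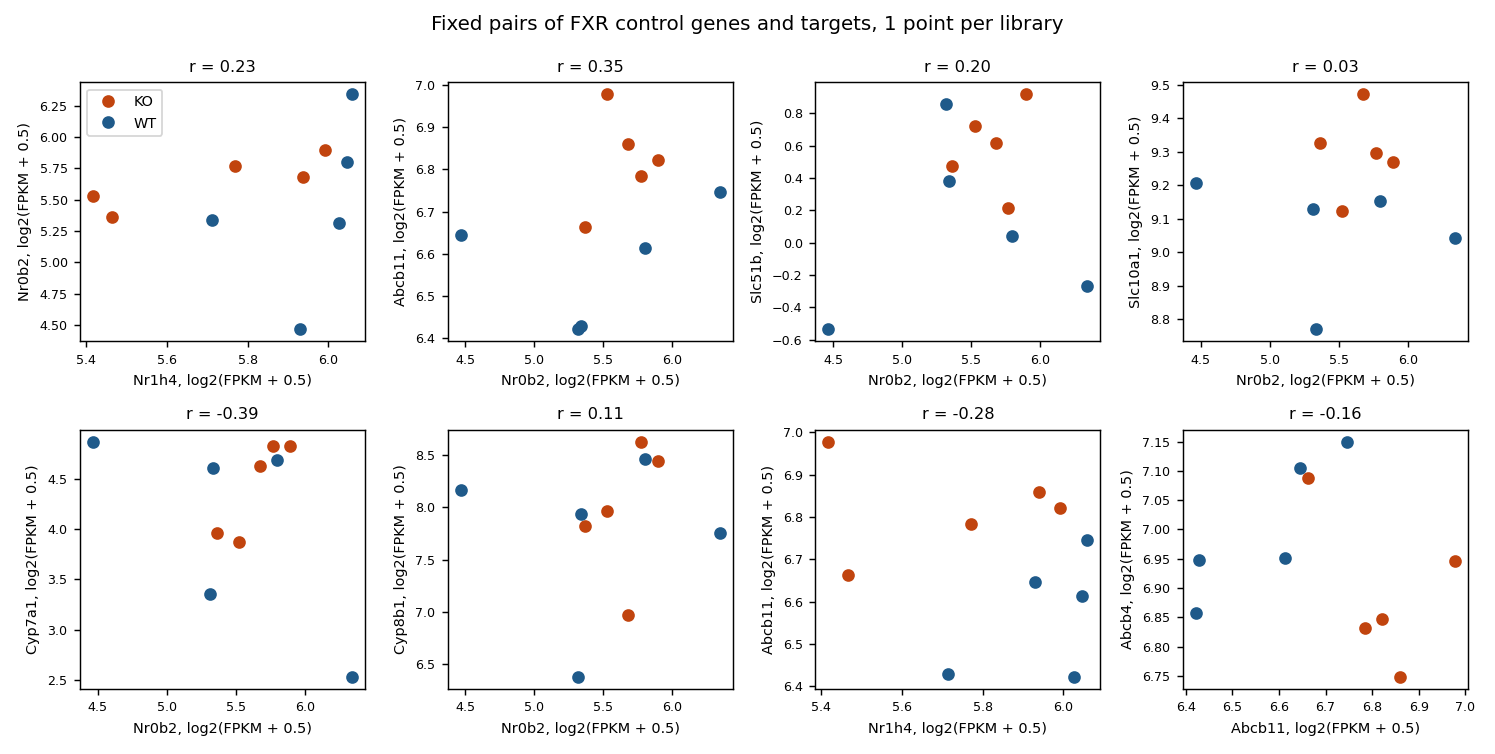
Log2(FPKM + 0.5) of the 8 fixed pairs, 1 point per library, with KO and WT in different colours and the Pearson r over 10 libraries above each plot. The plot of Nr0b2 against Cyp7a1 shows the WT replicates with the highest and lowest Nr0b2 at opposite corners, and the KO libraries between them.

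The genes whose pattern over the 10 libraries was most like a member were taken by the highest Pearson r of log2(FPKM + 0.5) among genes tested. Symbols that are clone or model names, ending in Rik or made of Gm and a number, were left out. For Nr0b2 these were Tnnt1, Gusb and Tsku, with an r of 0.92, 0.91 and 0.86, and for Abcb11 they were Arhgap32, Slc17a4 and Lama5, with an r of 0.97, 0.92 and 0.91. They are the top of those left of the 12395 genes, over 10 libraries, and describe likeness in these libraries alone. For Slco1a1, which rests on few fragments, no likeness was read.

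The other genes of the pathway were counted in fixed lists, and none of their members passed over all genes tested. Their counts at an unadjusted limma p under 0.05 stand beside 11.8% of all genes, and their counts of higher genes beside 34.9%. Of 8 other canalicular carriers tested, 3 were higher and 5 lower, 0 were called and 0 had an unadjusted p under 0.05, and the median log2 fold change was -0.05. Tmem30a, the partner subunit of the canalicular flippase, had 45.0 ± 4.23 FPKM in KO and 48.2 ± 1.87 FPKM in WT. Of 9 other uptake and efflux genes tested, 3 were higher and 6 lower, 0 were called and 3 had an unadjusted p under 0.05, with 1 higher and 2 lower. Slc10a2, the apical bile acid carrier of ileum and bile duct cells, had 0.54 to 1.47 FPKM in KO and 1.68 to 2.88 FPKM in WT, without overlap (log2 fold change -0.73, limma adjusted p = 0.143), and it also stands among the cholangiocyte markers. Abcc4, a basolateral exporter, had 0.882 ± 0.135 FPKM in KO and 1.16 ± 0.183 FPKM in WT, and its relative Abcc6 had 31.5 ± 2.08 FPKM in KO and 27.3 ± 3.68 FPKM in WT.

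Of 12 partners and regulators of FXR tested, 6 were higher and 6 lower, 0 were called and 1 had an unadjusted p under 0.05. That gene was Ppargc1a, a coactivator of fasting metabolism, at 5.40 ± 1.43 FPKM in KO and 3.76 ± 0.569 FPKM in WT (limma adjusted p = 0.285). Rxra, the DNA-binding partner of FXR, had 138 ± 13.2 FPKM in KO and 126 ± 6.56 FPKM in WT, and Fgfr4, the hepatic receptor for the ileal hormone that signals bile acid return, had 15.3 ± 1.44 FPKM in KO and 13.2 ± 2.05 FPKM in WT. The gene of that hormone, Fgf15, was listed at 0 in all libraries.

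Of 11 other FXR targets tested, 8 were higher and 3 lower, 0 were called and 2 had an unadjusted p under 0.05, with a median log2 fold change of 0.11. These were the aldose reductase relative Akr1b7, at 1.06 ± 0.308 FPKM in KO and 0.486 ± 0.288 FPKM in WT (limma adjusted p = 0.208), and the HDL receptor Scarb1, at 91.8 ± 8.30 FPKM in KO and 76.3 ± 7.59 FPKM in WT (limma adjusted p = 0.223). Of 13 bile acid synthesis genes, 11 were higher and 2 lower, 0 were called and 5 had an unadjusted p under 0.05, with 4 higher and 1 lower, and the median was 0.12. Cyp7a1 and Cyp8b1 stand in both of these lists, with log2 fold changes of 0.41 and 0.23. The list of FXR targets thus holds genes that FXR and SHP restrain beside genes that FXR induces. Its count of higher genes and its median are therefore no measure of FXR activity. Cyp2c70, which makes the muricholic acids of the mouse, had 98.8 to 142 FPKM in KO and 54.0 to 97.4 FPKM in WT, without overlap (log2 fold change 0.50, limma adjusted p = 0.257).

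**Figure D5:**
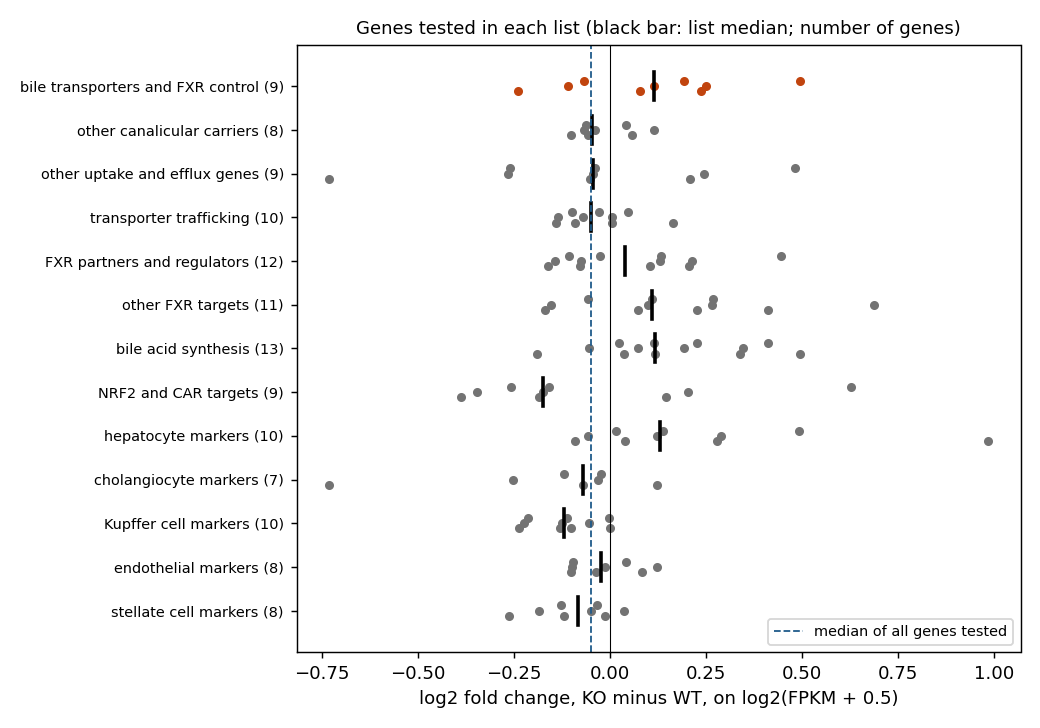
Log2 fold change of KO minus WT for each gene tested in the members and in 12 fixed lists, 1 point per gene, with the list median as a black bar and the median of all genes tested as a dashed line. The medians of the members, the other FXR targets, bile acid synthesis and hepatocyte markers lie between 0.11 and 0.13, against -0.05 for all genes.

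No marker of the liver's cell types was called. Of 10 hepatocyte markers, 8 were higher in KO, against 34.9% of all genes, with a median log2 fold change of 0.13. At an unadjusted limma p under 0.05 there were 4, all higher, against 11.8% of all genes. The KO and WT ranges were separate in 3, against 2.79% of all genes. These were Tat, Cps1 and Hpd, with log2 fold changes of 0.98, 0.49 and 0.29. Of 7 cholangiocyte markers tested, 1 was higher, against 34.9% of all genes, with a median of -0.07. At an unadjusted limma p under 0.05 there was 1, Slc10a2, lower in KO, against 11.8% of all genes. It was also the 1 with separate KO and WT ranges, against 2.79% of all genes. Kupffer cell markers (1 of 10 higher, summed 326 to 475 FPKM in KO and 371 to 513 FPKM in WT), sinusoidal endothelial markers (3 of 8 higher, summed 172 to 206 FPKM in KO and 185 to 208 FPKM in WT) and stellate cell markers (1 of 8 higher, summed 317 to 346 FPKM in KO and 313 to 400.4 FPKM in WT) overlapped between the genotypes. Their part in the members' values was not tested.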

How the data were processed

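Per the labels, liver RNA was poly(A)-selected and second strands were made with a directional kit, and the series' design text gives paired ends. The authors deposited FPKM for 47729 genes, rounded to 2 decimals. Tools named in the submitters' processing notes are DESeq, DESeq2, RSEM, STAR and R 4.0.2, with build mm10. The sources used here do not give their roles, the annotation or the strand setting. FPKM holds no counts, so no count model was fitted.

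The test ran on log2(FPKM + 0.5) of the 12395 genes whose mean was 0.5 FPKM or more, as KO minus WT, with limma 3.58.1 in R 4.3.3 (two-sided, trend and robust prior) and Benjamini-Hochberg adjustment over all genes at 0.05. The scale understates changes of low genes. Exact permutation tests ran over 252 regroupings and correlation tests over 100000 resamples, with scipy 1.17.1. Depth was fitted so that low values of genes with 1 GENCODE M21 transcript of 350 to 1000 bases became whole fragments, and 94.3% to 97.3% came within 0.1 fragment. Fragment numbers cover counting error only. Coordinates are GENCODE M21 on GRCm38, the assembly behind mm10.

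The members and lists were chosen with earlier results of these data known. Named genes are the members, Etnppl, up to 4 genes of lowest p in each list, genes of the fixed pairs and ratios, and the 3 most like Nr0b2, Abcb11 and Slco1a1. Genes whose exons overlap a member and genes under the filter fall outside that rule. Apoc2, a symbol given 2 times in the table, was taken at its higher mean. Some list genes are not reported here. Alternatives were other pseudocounts, filters, scalings, priors and weights, a replicate block and each library left out.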

Additional observations from a re-analysis of the deposited data

Results flagged for a closer look

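No member had a sample standing far from its group. Among 61 genes described, 122 groups of 5 were examined, and 11 had a highest or lowest library set apart from the other 4 by more than 0.71 of the group's range. Chance gives this in about 1 in 20 groups. Of these 11, 4 came from WT replicate 2, which was also the lowest library for Slc10a1, Slco1b2 and Abcc2. Among WT libraries alone it was lowest for Abcc3 and Nr1h4 as well, but not for the other members. In that library Abcg2, the canalicular breast cancer resistance protein, had 9.65 FPKM against 14.3 FPKM in the nearest WT library, and Cyp2c70 had 54.0 FPKM against 86.2 FPKM. The stellate cell genes Rgs5 and Dcn were high there, at 27.6 and 152 FPKM. The other high libraries were WT replicate 5 for Abcb1a (2.83 FPKM), KO replicate 3 for Akr1b7 (1.59 FPKM), KO replicate 4 for Scarb1 (106 FPKM) and KO replicate 5 for Gclc (97.2 FPKM). The low ones were KO replicate 1 for Abcc6 (27.9 FPKM) and for the endothelial gene Cdh5 (9.38 FPKM), and WT replicate 3 for Ezr (2.52 FPKM).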

How the results depend on the processing

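The 9 members were refitted 197 times over 22 settings. None was called in any refit (lowest limma adjusted p = 0.201, for Abcb11), and the sign was kept in all but 2. Those were Slco1b2, at -0.0013 to 0.13 on the log2 scale when single libraries were left out, and Nr0b2, at -0.053 to 0.42. The 12 lists had 0 genes called in every refit. Of the 50 other genes refitted, Cyp8b1 alone changed sign, at -0.11 to 0.47 when single libraries were left out. The 8 genes called over the whole table became 5 with no filter, 5 with no trend or robust prior, 18 with array weights, 30 at an adjusted p of 0.1, and 4 to 18 without single libraries. With the replicate number as a block the count was 5 and no member was called. In that refit 3 members had an unadjusted limma p under 0.05, against 2 in the main fit, and 12.2% of all genes did. Same-numbered samples had correlations of -0.025 to 0.20 in their deviations, and 3 of 5 correlated best with their own number. These values do not settle whether the numbers mark pairs, and the labels do not say. The main test left the samples unpaired. With median-of-ratios scaling 48.9% of genes were higher in KO and the median of all genes was -0.004, with 6 of 9 members higher. The correlation changed sign without the 2 farthest libraries for Nr0b2 and Slc51b (-0.17), Nr0b2 and Cyp7a1 (0.74, unadjusted exact permutation p = 0.0413) and Nr1h4 and Abcb11 (0.16). That p comes after 2 libraries were left out for their Nr0b2 values, and none is given for the other pairs, so no relation is read from it. With genotype means removed the correlation changed sign for Nr0b2 and Slc10a1 (-0.15), Nr1h4 and Abcb11 (0.20) and Abcb11 and Abcb4 (0.27), and with median-of-ratios scaling for the last pair (0.023). The cause was not tested. Depth limits Slco1a1 and Slc51b, whose values rest on at most about 25 fragments.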

Other observations

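The genes that hold the transporters in their membranes, and targets of NRF2 and CAR, regulators known to induce Abcc2 and Abcc3, were also counted. Of 10 trafficking genes tested, 4 were higher and 6 lower in KO, against 34.9% of all genes higher, and 0 were called. The median log2 fold change was -0.05, as it was for all genes. At an unadjusted limma p under 0.05 there was 1, Rdx, lower in KO, against 11.8% of all genes. Rdx, which encodes radixin, the anchor of Abcc2 at the canaliculus, had 54.3 ± 2.48 FPKM in KO and 59.8 ± 4.08 FPKM in WT (SD, n = 5 each), a log2 fold change of -0.14 (limma adjusted p = 0.416). Pdzk1, a scaffold that holds organic anion carriers in the basolateral membrane, had 40.5 ± 4.31 FPKM in KO and 36.1 ± 4.21 FPKM in WT.

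Of 9 NRF2 and CAR targets tested, 3 were higher and 6 lower in KO, against 34.9% of all genes higher. The median was -0.18, and 0 were called. At an unadjusted limma p under 0.05 there were 5, with 1 higher and 4 lower, against 11.8% of all genes. Gclc, the catalytic subunit of glutathione synthesis, had 83.7 ± 7.58 FPKM in KO and 110.1 ± 14.3 FPKM in WT (log2 fold change -0.39, limma adjusted p = 0.143). Nqo1, a quinone reductase, had 5.89 ± 0.592 FPKM in KO and 7.64 ± 0.977 FPKM in WT (log2 fold change -0.35, limma adjusted p = 0.200). Ces2a, a carboxylesterase and the 1 that was higher, had 50.7 ± 5.42 FPKM in KO and 43.9 ± 3.37 FPKM in WT (log2 fold change 0.20, limma adjusted p = 0.350). Beside these, Abcc2 had a log2 fold change of -0.07 and Abcc3 one of 0.12.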
